A study of Mus musculus with 9 samples.

Results

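Ribosome biogenesis factors are the proteins that transcribe, cut, modify and fold ribosomal RNA and assemble it with ribosomal proteins. Here they are 49 genes, chosen by symbol from a list of nucleolar rRNA processing and ribosome assembly genes, out of 26157 genes in the expression table of the study. This list and the further gene lists below were chosen with earlier results of these data known. Counts over them are therefore descriptions. All 49 symbols were found. RNA selected with poly-T beads was sequenced from 9 libraries of J774A.1 cells, an established line of mouse macrophages. The libraries form 3 groups of 3. Control libraries came from J774A.1 cells kept in normal culture. M2 libraries came from the same line induced with IL-4 and IL-13, each at 10 ng/mL, the pair of cytokines used to bring macrophages into the alternatively activated (M2) state. Q11 libraries came from cells that received Q11, which the title of the series calls a CYP2E1 inhibitor (CYP2E1 is a cytochrome P450 oxidase), at the same time as IL-4 and IL-13. No source used here gives the dose of Q11, the dose of the cytokines in the Q11 libraries or the duration of treatment. The labels do not say that the 3 libraries of a group came from separate cultures, so p-values measure only the spread between these libraries, which may be technical.

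Ribosomes are made mainly in the nucleolus. RNA polymerase I transcribes a long precursor rRNA there, small nucleolar ribonucleoproteins (snoRNPs) guide its methylation and pseudouridylation, and large assemblies such as the small subunit processome and the PeBoW complex fold and cut it into the RNAs of the small and large subunits. Many genes of this pathway are known targets of the transcription factor Myc, and cells that grow or raise their protein output commonly make more of these factors. IL-4 and IL-13 signal through a shared receptor chain and STAT6 in macrophages and change the expression of many metabolic and effector genes.

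Levels are given as TPM, the share of transcripts scaled to a fixed total, which are corrected for gene length, and differences as log2(TPM + 1) from limma fitted on 14207 genes, with p-values adjusted over all of them by the Benjamini-Hochberg method and called below 0.05. Because the cells were measured in bulk, more cells in a state and more RNA per cell cannot be told apart. The reads behind the TPM could be recovered from the gene lengths and came to 15809432 to 17089171 in 8 libraries and 32180912 in Q11 replicate 2. Q11 replicate 2 held fewer reads than Q11 replicate 3 in 10 of 19235 genes, against 1928 to 2406 genes for the 7 other libraries, so reads of Q11 replicate 3 appear to be counted in both columns. The results are therefore also given with the reads of Q11 replicate 3 subtracted from Q11 replicate 2, which left 15330203 reads, and this is called the separated fit. All 12 macrophage markers were present in every library, among them Csf1r at 328 to 385 TPM and the lowest, Adgre1, at 11.8 to 15.6 TPM. Lyz2 had the highest level and the widest range of the 12, at 3343 to 7140 TPM over the libraries, and so weighs most in their sum. The summed level was 14150 to 14689 TPM in control, 9508 to 10266 in M2 and 9883 to 9949 in Q11 libraries. The part of that shift between groups in the results was not tested. Markers of stromal, epithelial, liver, lymphoid and endothelial cells summed to at most 3.01 TPM per list in any library, over 3 of 7 stromal, 1 of 5 epithelial, 1 of 5 liver, 5 of 7 lymphoid and 4 of 4 endothelial markers; the other markers were not analysed here.

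The factors were abundant in resting J774A.1 cells. Their mean control level ran from 21.8 TPM for Wdr12 to 748 TPM for Npm1, with a median of 88.7 TPM, against a median of 17.3 TPM over the 14207 genes tested. All 49 were above that median and all 49 passed the filter on low values in every group. Between 592 and 41005 recovered reads stood behind each value, with a median of 1597. The order by reads differs from that by TPM. In control, Ncl had 17544 to 19731 recovered reads and Npm1 9158 to 10451. The members lie on 17 chromosomes with at most 7 on any of them. Annotated exons of 21 members overlap those of another gene, by 10% of the member's exon length or more in 2 cases, Tsr1 with Srr (32.3%) and Noc2l with Samd11 (20.9%), both on the opposite strand. Srr and Samd11 were low, at means of 4.05 and 5.60 TPM over the libraries. Smaller overlaps lay with more abundant genes on the opposite strand, such as Bysl with Ccnd3 (9.37%, mean 52.3 TPM) and Emg1 with Lpcat3 (7.21%, mean 145 TPM). No source used here gives the strand setting of the counting, so reads of these pairs cannot be told apart. Their part in the differences of these members was not tested.

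Added up, the 49 factors took 6023, 6123 and 5812 TPM in control, 7007, 6979 and 6831 TPM in M2 and 7061, 6729 and 6799 TPM in Q11 cells. Every M2 and every Q11 library lay above every control library, and M2 and Q11 overlapped. As a share of all transcripts this was 0.599% ± 0.0159 (SD, n = 3) in control, 0.694% ± 0.00949 in M2 and 0.686% ± 0.0175 in Q11. The Q11 SD takes Q11 replicate 2 as deposited. Its reads appear to include those of Q11 replicate 3, so this SD may understate the spread.

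**Figure D1:**
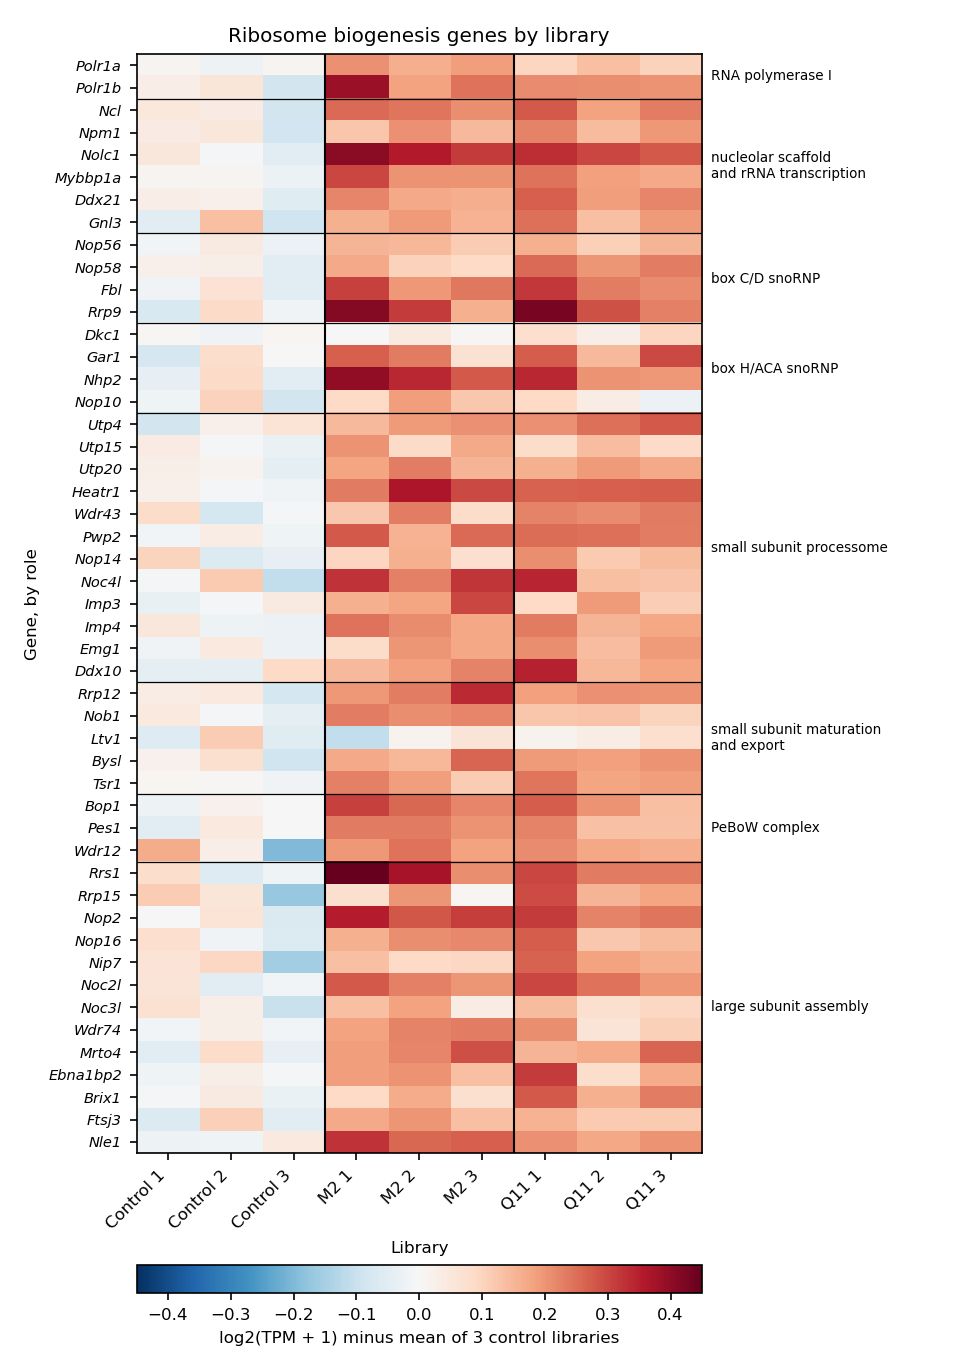
Heat map of the 49 ribosome biogenesis factors (rows, grouped by role) in the 9 libraries (columns), coloured by log2(TPM + 1) minus the mean of the 3 control libraries of that gene. The M2 and Q11 columns are mostly above the control mean, while Dkc1 and Ltv1 stay near it.

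With IL-4 and IL-13 (M2 against control), the pathway was higher nearly throughout. Of the 49 factors 34 rose, 0 fell and 15 did not pass the test, where 6.88% of all genes tested rose and 5.75% fell. The difference was above 0 for 48 of the 49, against 49.4% of all genes, and the exception was Ltv1 (-0.01), which was named after its value was seen. The changes were small: the median difference was 0.19 on the log2 scale, a 1.15-fold median ratio of mean TPM, and the range was -0.01 to 0.36 (0.991-fold to 1.29-fold), beside a median near 0 (-0.003) over all genes tested. Only 10 of the 49 were at least 1.2-fold higher. All 3 M2 libraries lay above all 3 control libraries for 41 members, where this holds for 14.5% of all genes. In the separated fit 30 members rose and 0 fell, against 5% and 4.34% of all genes. The M2 differences were the same there, but most adjusted p-values were higher, as all 9 libraries share 1 estimate of the spread. For Polr1a the adjusted p was 0.00945 there and 0.00291 as deposited. Values of single members below are as deposited unless the separated fit is named.

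**Figure D2:**
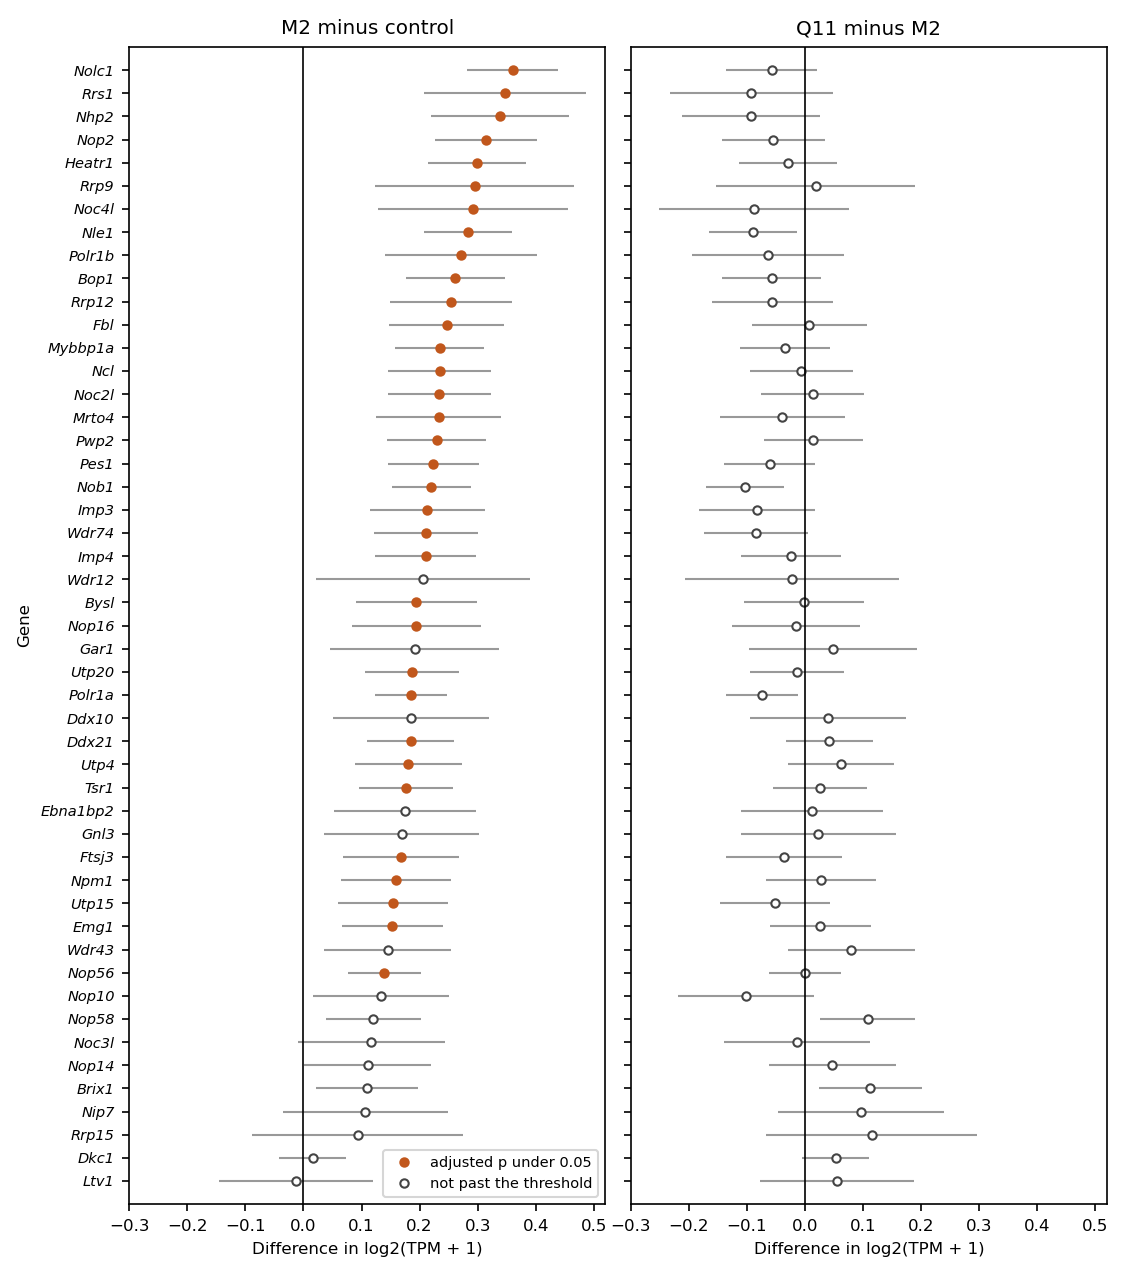
Difference in log2(TPM + 1) of each of the 49 factors with its 95% interval (grey line), for M2 minus control (left panel) and Q11 minus M2 (right panel), with genes in both panels ordered by the M2 difference; filled points passed the adjusted p of 0.05 and open points did not. On the left 48 of 49 points lie above 0 and 34 are filled, and on the right the points scatter around 0 (median -0.01) and 0 are filled.

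Both members of RNA polymerase I rose. Polr1a (chr6:71909053-71984935, plus strand, GRCm38), the largest subunit and part of the catalytic centre, was at 68.1, 66.5 and 68.1 TPM in control, 78.0, 75.7 and 77.1 in M2 and 72.3, 74.3 and 72.7 in Q11 libraries. The control values were below all others, and the M2 values were the highest. Its difference between M2 and control was 0.19 (95% interval 0.12 to 0.25, adjusted p = 0.00291). Polr1b, the other catalytic subunit, was at 32.6, 33.2 and 30.1 TPM in control, 42.0, 36.3 and 38.0 in M2 and 37.1, 37.0 and 36.8 in Q11 libraries, with 1 M2 library (replicate 1) above the rest. It rose by 0.27 (0.14 to 0.40, adjusted p = 0.0171). Polr1b missed the threshold when control replicate 3 was left out (adjusted p = 0.0568).

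Of the 6 nucleolar scaffold and rRNA transcription proteins 5 rose, and the sixth, Gnl3 (nucleostemin, a nucleolar GTPase), stood at 0.17 (adjusted p = 0.104). Nolc1, the nucleolar phosphoprotein that binds snoRNPs (chr19:46075863-46085530, plus strand), had the largest difference of all members. It was at 194, 186 and 181 TPM in control, 248, 239.9 and 233 in M2 and 235, 230.3 and 227 in Q11 libraries, with no overlap between control and the others. The M2 difference was 0.36 (0.28 to 0.44, adjusted p = 2.66e-04), a 1.29-fold ratio. Nucleolin (Ncl), an abundant RNA-binding protein of the nucleolus, was at 385, 383 and 353 TPM in control, 445, 442 and 431 in M2 and 452, 423 and 438 in Q11 libraries. Control replicate 3 was the lowest library, and again control did not overlap the treated groups. Ncl rose by 0.23 (0.15 to 0.32, adjusted p = 0.00559). Nucleophosmin (Npm1), a chaperone of the outer layer of the nucleolus, had the highest TPM of the members. It was at 766, 775 and 704 TPM in control, 816, 863 and 827 in M2 and 873, 826 and 855 in Q11 libraries. It rose by 0.16 (0.07 to 0.25, adjusted p = 0.0385), a call that was lost in 14 of 19 alternatives, the separated fit (adjusted p = 0.0732) and 8 of the 9 fits without 1 library among them (0.0504 to 0.0964). Mybbp1a and the RNA helicase Ddx21 rose by 0.23 and 0.18.

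Of the 4 members that belong to box C/D snoRNPs, most of which methylate rRNA, 3 rose. Fibrillarin (Fbl), the methyltransferase itself, was at 102, 108 and 99.6 TPM in control, 128, 118 and 122 in M2 and 129, 121 and 119.6 in Q11 libraries. It rose by 0.25 (0.15 to 0.35, adjusted p = 0.00777). Its partner Nop56 was at 219.6, 228 and 218 TPM in control, 247, 246 and 240.0 in M2 and 248, 239 and 246 in Q11 libraries, a tight set of values with a small rise of 0.14 (0.08 to 0.20, adjusted p = 0.0123). Nop58, the other scaffold of the particle, was at 55.9, 56.1 and 53.0 TPM in control, 61.9, 59.1 and 58.5 in M2 and 65.7, 63.3 and 64.7 in Q11 libraries. The 3 groups of Nop58 values did not overlap, and the M2 difference of 0.12 did not pass the test (adjusted p = 0.0622). Rrp9, found in the box C/D particle that acts in early cleavage of the precursor and not in methylation, was at 41.6, 46.5 and 43.2 TPM in control, 58.5, 54.6 and 48.9 in M2 and 59.1, 53.6 and 51.3 in Q11 libraries. It rose by 0.29 (0.12 to 0.47, adjusted p = 0.0358). Rrp9 missed the threshold when either control replicate 1 (adjusted p = 0.114) or 3 (0.098), either M2 replicate 1 (0.104) or 2 (0.0809), or Q11 replicate 2 (0.0589) was left out. Snu13, which is a core protein of these particles and no member here, stood at 0.13 and did not pass the test (adjusted p = 0.126).

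The box H/ACA snoRNPs, which pseudouridylate rRNA, were mixed: 1 of the 4 core proteins rose. Nhp2 (chr11:51619735-51623714, plus strand) was at 374, 407 and 369.7 TPM in control, 506, 485 and 465 in M2 and 485, 441 and 439 in Q11 libraries. It rose by 0.34 (0.22 to 0.46, adjusted p = 0.00381). Dkc1 (dyskerin), the pseudouridine synthase of the same particle, was at 199, 196 and 199.8 TPM in control and 199, 204 and 199 TPM in M2 libraries, and the groups overlapped. Its difference was 0.02, with an interval of -0.04 to 0.07 that does not reach the median difference of the members of 0.19 (adjusted p = 0.76). In the separated fit the interval of Dkc1 was -0.07 to 0.10. Gar1 and Nop10, the other core proteins, stood at 0.19 and 0.13 and did not pass the test (adjusted p = 0.0907 and 0.141).

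In the small subunit processome, the assembly that forms on the precursor rRNA as it is transcribed, 9 of 12 members rose (Wdr43, Nop14 and Ddx10 did not pass), and 7 of 12 in the separated fit. The calls lost there were those of Utp15 (adjusted p = 0.0954) and Emg1 (0.0693), which did not pass in 13 and 11 of the 19 alternatives in all. Heatr1, a scaffold protein of the early processome, was at 46.7, 45.7 and 45.5 TPM in control, 54.1, 59.4 and 56.7 in M2 and 55.4, 55.6 and 55.7 in Q11 libraries. The control libraries sat close together and below all treated ones, and Heatr1 rose by 0.30 (0.21 to 0.38, adjusted p = 0.00119). Utp4, of the same subcomplex, was at 83.6, 90.0 and 92.4 TPM in control, 98.2, 101 and 102 in M2 and 102, 105 and 107 in Q11 libraries, and rose by 0.18 (0.09 to 0.27, adjusted p = 0.0209). Noc4l, which pairs with Nop14, was at 57.7, 63.0 and 53.6 TPM in control and 72.8, 68.0 and 72.8 TPM in M2 libraries. Its Q11 values were 73.8, 63.8 and 63.5 TPM. Noc4l rose by 0.29 in M2 (0.13 to 0.45, adjusted p = 0.0313). Both of these calls depended on single libraries. Utp4 missed the threshold when control replicate 1 (adjusted p = 0.0516) or M2 replicates 2 (0.0521) or 3 (0.0623) were left out. Noc4l missed it when control replicates 1 (0.0868) or 3 (0.0975), or M2 replicates 1 (0.0908) or 3 (0.0874), were left out.

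Later steps of the small subunit showed the same direction in 4 of 5 members. Nob1, the endonuclease that makes the last cut of the small subunit rRNA, was at 66.6, 64.3 and 62.8 TPM in control and 75.9, 74.7 and 75.4 TPM in M2 libraries. Its values were tight within groups, and it rose by 0.22 (0.15 to 0.29, adjusted p = 0.00188). Rrp12, Bysl and Tsr1, which act in maturation and export of the small subunit, rose by 0.25, 0.19 and 0.18. Bysl missed the threshold when control replicates 1 (adjusted p = 0.061) or 3 (0.0642), or M2 replicates 1 (0.0555) or 3 (0.0734), were left out, and with a replicate block (0.0667). Ltv1, a late assembly factor, was at 57.5, 64.9 and 57.6 TPM in control and 55.4, 60.6 and 62.4 TPM in M2 libraries, and the groups overlapped (interval -0.14 to 0.12, adjusted p = 0.927).

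The 3 members of the PeBoW complex, needed for rRNAs of the large subunit, were higher in every M2 library than in any control library, and 2 of them passed the test. Bop1 (chr15:76452989-76477277, minus strand) was at 249, 256 and 253 TPM in control and 313, 303 and 294 TPM in M2 libraries. It rose by 0.26 in M2 (0.18 to 0.35, adjusted p = 0.00259). In Q11 libraries Bop1 was at 306, 291 and 278 TPM. Its partner Pes1 was at 133, 141 and 137 TPM in control and 161, 161 and 158 TPM in M2 libraries. Pes1 rose by 0.22 in M2 (0.14 to 0.30, adjusted p = 0.00383). In Q11 libraries Pes1 was at 160, 150 and 150 TPM. Wdr12 had the lowest TPM of all 49. It was at 24.5, 22.2 and 18.8 TPM in control, 24.96, 25.8 and 24.7 in M2 and 25.3, 24.6 and 24.4 in Q11 libraries. The M2 difference of 0.21 did not pass the test (0.02 to 0.39, adjusted p = 0.148). The SD of the control values of Wdr12 was 2.89 TPM on a mean of 21.8 TPM.

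Among the 13 members that assemble the large subunit 8 rose, and Rrp15, Nip7, Noc3l, Ebna1bp2 and Brix1 did not pass. In the separated fit 7 of 13 rose, and Ftsj3 missed the threshold (adjusted p = 0.0503), as it did in 14 of the 19 alternatives. Nop16 missed it in 8 of the 19 and Mrto4 in 2, both among them without control replicate 3 (adjusted p = 0.106 and 0.0515). Rrs1 (chr1:9545408-9547455, plus strand), an early factor of the large subunit, was at 218, 198 and 204 TPM in control, 285, 267 and 239 in M2 and 255, 243 and 242 in Q11 libraries. It rose by 0.35 (0.21 to 0.49, adjusted p = 0.00777), the second largest difference among the members. Nop2, an rRNA cytosine methyltransferase (chr6:125131909-125144753, plus strand), was at 235, 245 and 225 TPM in control, 301, 285 and 292 in M2 and 292, 274 and 278 in Q11 libraries. It rose by 0.31 (0.23 to 0.40, adjusted p = 0.00118). Nle1 (Notchless), which takes part in the release of assembly factors, was at 46.2, 46.3 and 48.5 TPM in control, 59.1, 56.3 and 56.8 in M2 and 54.3, 53.1 and 54.2 in Q11 libraries. M2 values of Nle1 were above all others, and it rose by 0.28 (0.21 to 0.36, adjusted p = 8.74e-04). Noc2l was at 107, 99.1 and 102 TPM in control, 124, 119.9 and 118 in M2 and 126, 121 and 117 in Q11 libraries and rose by 0.23 (adjusted p = 0.0058). Brix1, a factor of the large subunit that carries the Brix domain, was at 96.5, 99.8 and 95.2 TPM in control and 103, 109 and 102 TPM in M2 libraries, which did not overlap, with a difference of 0.11 (adjusted p = 0.111).

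**Figure D3:**
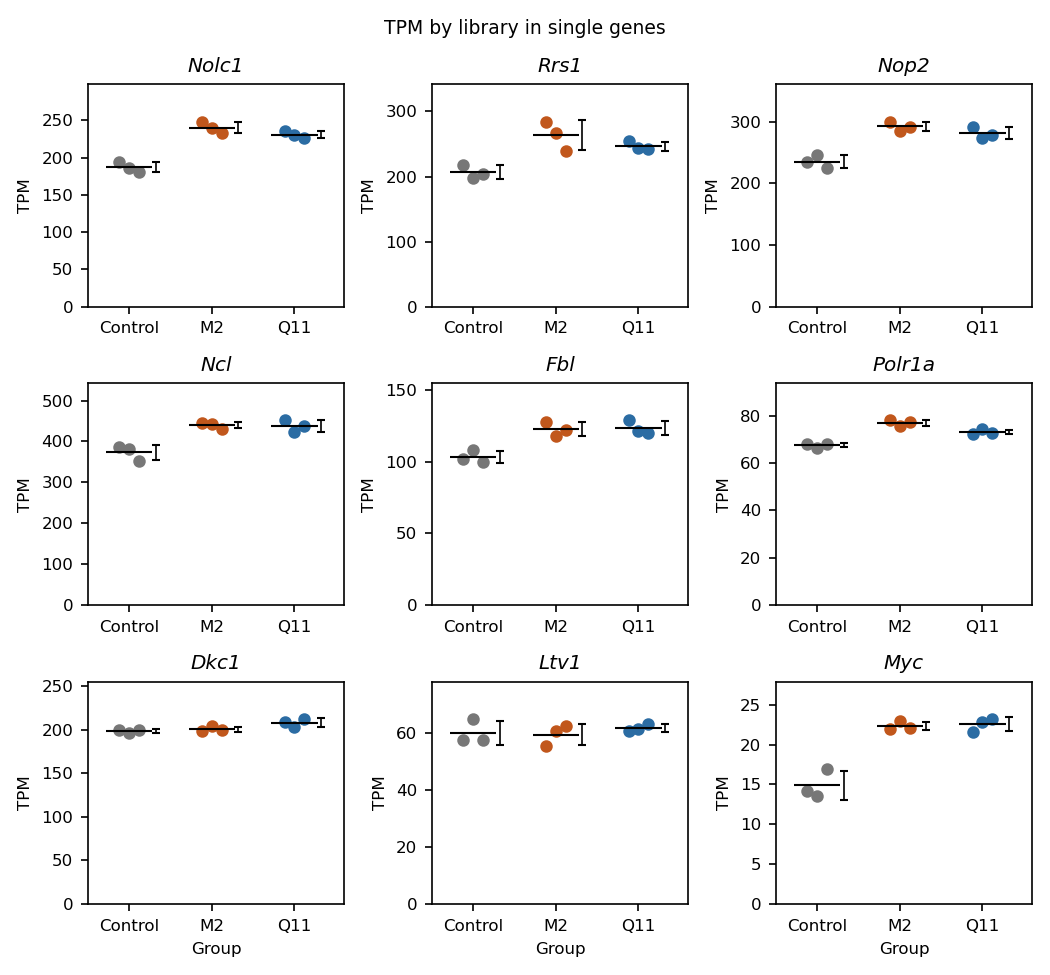
TPM of Nolc1, Rrs1, Nop2, Ncl, Fbl, Polr1a, Dkc1, Ltv1 and Myc in each of the 9 libraries (points), with the group mean (line) and SD (bar beside it), each panel on its own axis from 0. Control values of Nolc1, Rrs1, Nop2, Ncl, Fbl, Polr1a and Myc lie below all treated values, whereas for Dkc1 and Ltv1 the control and M2 values overlap.

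Neither the level nor the length of a member went closely with its difference. Across the 49 genes, Spearman's rho between the control TPM and the M2 difference was 0.155, and between exon length and the difference it was -0.0854. These describe genes measured in the same 9 libraries, which are not independent replicates. Libraries of a group also differed in the level of the whole set: control replicate 3 had the lowest value of its group in 31 of 49 members, M2 replicate 3 in 25 and Q11 replicate 2 in 25, and Q11 replicate 1 had the highest in 35. Leaving out control replicate 3 gave 24 rises in M2, and leaving out control replicate 1 gave 25.

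**Figure D4:**
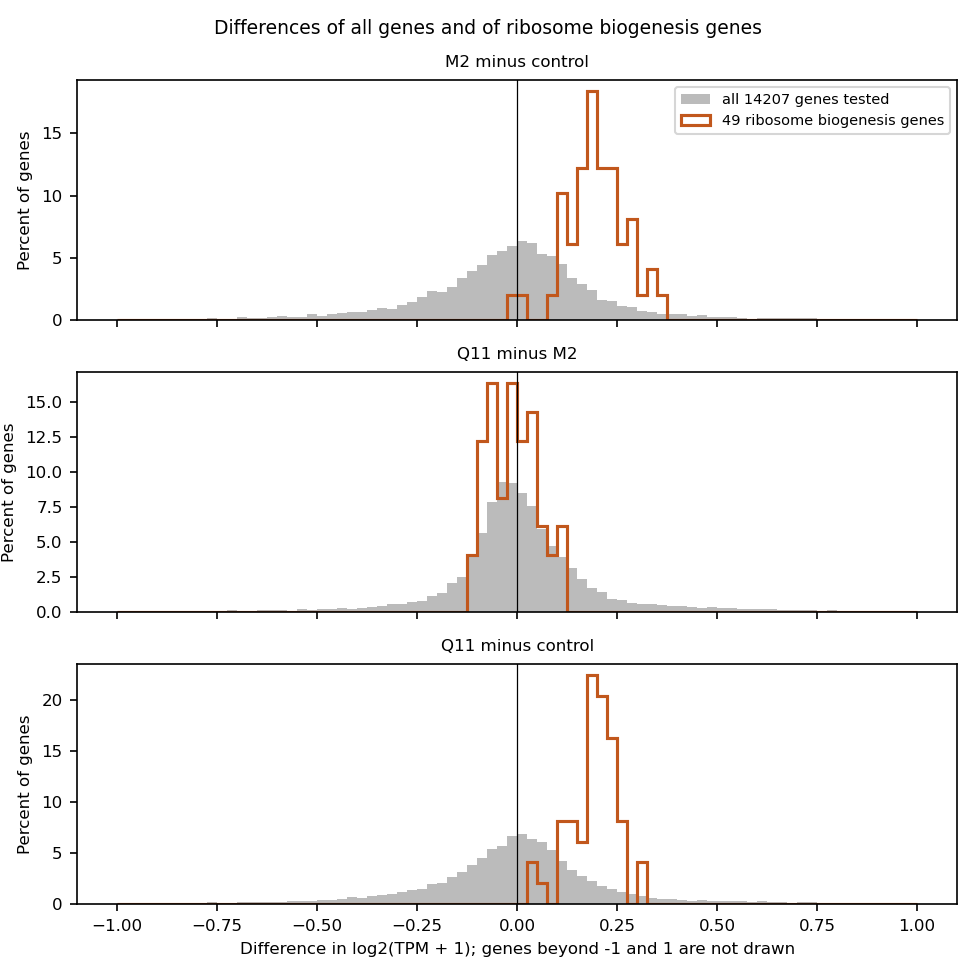
Histograms of the difference in log2(TPM + 1) for the 49 factors (outline) and for all 14207 genes tested (grey), as percent of genes, in the 3 comparisons; genes beyond -1 and 1 are not drawn. The outlines lie to the right of 0 against control, with medians of 0.19 for M2 and 0.20 for Q11, and around 0 for Q11 against M2.

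Other genes of the pathway also rose. In lists of further factors, 3 of 14 genes of RNA polymerase I and its cofactors rose, 10 of 41 of the small subunit, 19 of 47 of the large subunit and 4 of 13 of the nuclear RNA exosome, and 0 fell in any of these lists. Together this was 36 of 115 (30 in the separated fit), with a median difference of 0.12, against the 6.88% of all genes that rose. Whether this share differs from that of the 49 members was not tested. Polr1d, a subunit shared by RNA polymerases I and III, rose by 0.36 (mean 51.9 to 66.6 TPM, adjusted p = 0.00138), Tcof1 (treacle), which supports rRNA transcription, by 0.31 (adjusted p = 0.0134) and Polr1c by 0.24 (adjusted p = 0.0238). Wdr46, Aatf and Pdcd11 of the small subunit rose by 0.35, 0.30 and 0.24. Nsun5, Rrp8 and Wdr18 of the large subunit rose by 0.28, 0.26 and 0.25. The exosome, which trims rRNA ends, gave Exosc4 (0.27), Exosc3 (0.22) and Exosc5 (0.22), and the call on Exosc4 was lost in the separated fit (adjusted p = 0.10). Exosc6 was not analysed here.

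Myc, the transcription factor known to drive many of these genes, was at 14.1, 13.6 and 17.0 TPM in control, 22.0, 23.0 and 22.0 in M2, and 21.5, 22.9 and 23.2 in Q11 libraries. Control values were all below the treated ones. Myc rose by 0.56 with the cytokines (0.39 to 0.73, adjusted p = 0.00198), a larger difference than that of any of the 49 factors. Of the 10 genes of the Myc network that were tested, Myc and Mxd4 (0.42, adjusted p = 0.0453, and 0.0585 in the separated fit) rose and 0 fell. The network as a whole was mixed: 5 of the 10 differences were above 0, with a median of 0.03 and a range of -0.25 to 0.56. Max, the partner of Myc, stood at 0.07 (adjusted p = 0.394). Of 18 proliferation genes, 1 rose (Aurkb, by 0.12) and 1 fell (Pcna, by 0.14), against 6.88% and 5.75% of all genes tested. In the separated fit 0 of the 18 passed.

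Promoters of the members were searched for a fixed list of short motifs. Whether Myc or any motif has a part in the rise of the members was not tested. Promoter sequences from RefSeq (GRCm38.p6, from 250 bases before to 50 bases after the annotated start) were found for 44 of the 49 members, 47 promoters in all. The E-box CACGTG, to which Myc and Max and other basic helix-loop-helix factors can bind, stood in 10 of the 47 (21.3%), against 7.15% of all 32851 promoters and 10.1% of the promoters of tested genes. In 8 of the 10 it lay after the annotated start and in 2 before it. These sequences show the E-box in capitals, with bases counted from the start site, for the members that carry it before the start (Nop2 at -60 and Imp4 at -121) and for 5 of those that carry it after (Mybbp1a, Nle1, Pes1, Utp4 and Ltv1).
Nop2, chr6:125131811-125131840, plus strand: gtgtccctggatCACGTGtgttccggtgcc
Imp4, chr1:34439696-34439725, plus strand: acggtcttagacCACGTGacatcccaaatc
Mybbp1a, chr11:72441347-72441376, plus strand: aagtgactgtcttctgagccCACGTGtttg
Nle1, chr11:82908355-82908384, minus strand: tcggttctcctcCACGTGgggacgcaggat
Pes1, chr11:3963965-3963994, plus strand: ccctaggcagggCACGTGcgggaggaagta
Utp4, chr8:106893643-106893672, plus strand: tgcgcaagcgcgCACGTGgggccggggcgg
Ltv1, chr10:13193092-13193121, minus strand: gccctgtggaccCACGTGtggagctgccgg

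Nop2 and Imp4 carry an E-box before the start, and Nop2 had the larger rise (0.31 against 0.21). The whole stretch upstream of Nop2 is shown with the E-box in capitals (chr6:125131633-125131882, plus strand, GRCm38.p6).
Nop2 upstream: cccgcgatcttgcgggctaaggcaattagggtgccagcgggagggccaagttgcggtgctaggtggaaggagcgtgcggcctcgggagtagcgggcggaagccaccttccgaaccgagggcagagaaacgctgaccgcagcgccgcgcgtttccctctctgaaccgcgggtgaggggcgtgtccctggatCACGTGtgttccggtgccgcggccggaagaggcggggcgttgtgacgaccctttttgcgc

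Of the members with the E-box, 8 of 10 rose in M2 with a median difference of 0.20, and of those without it 21 of 34 rose with a median of 0.19. Ltv1 carries the motif and had a difference of -0.01.

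The motif CCGGAAGT, a core recognised by ETS factors, was found on either strand in 15 of the 47 promoters (31.9%, 14 members), against 3.89% of all promoters and 8.61% of those of tested genes. It is shown in capitals for Heatr1, Nhp2 and Noc2l, which rose in M2, for Brix1, which did not pass the test, and for Utp4, which carries 2 copies. Emg1, Ltv1 and Pwp2 also carry 2 copies, and Ltv1 had a difference of -0.01.
Heatr1, chr13:12395348-12395377, plus strand: gtagtgagaagCCGGAAGTtcctatgaggc
Nhp2, chr11:51619739-51619768, plus strand: cacttgaaaacCCGGAAGTgatgtcggagg
Noc2l, chr4:156236002-156236031, plus strand: gcattctgggcCCGGAAGTgcggcgcacgc
Brix1, chr15:10485912-10485941, minus strand: gagcggcagaaCCGGAAGTgcaggcagcga
Utp4 at -44, chr8:106893585-106893614, plus strand: attgcctgcgcACTTCCGGcctcgcgccgc
Utp4 at -20, chr8:106893609-106893638, plus strand: cgccgcggagtACTTCCGGgacggcgctgt

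Both copies in Utp4 are the reverse complement of the motif. In M2 8 of the 14 members with this motif rose, with a median difference of 0.18, and 21 of the 30 without it, with a median of 0.19. The motif GCCATNTT (YY1) was in 10.6% of member promoters, 6.05% of all promoters and 8.93% of those of tested genes. An NRF1 motif was in 0 of 47 member promoters, 0.971% of all and 2.15% of those of tested genes. TATAAA (the TATA box) was in 4.26%, 13.6% and 7.03%, in the same order. All motifs were searched on both strands, and E-box and ETS matches did not overlap each other in the windows shown. A match describes letters in these windows and is not a measured binding site.

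No member passed the test when Q11 was added to the cytokines. In the comparison of Q11 with M2, 0 of 49 factors rose and 0 fell, and limma called 0% of all genes tested, in the separated fit as well. At an unadjusted p below 0.05 there were 5 members (Nob1, Nop58, Brix1, Polr1a and Nle1) and 11.4% of all genes, and limma-voom on the recovered reads also called 0 members. The differences lay between -0.10 and 0.11, with a median of -0.01. They were above 0 for 21 members, against 49.6% of all genes, and below 0 for 28. The median changed sign without Q11 replicate 2 (0.002), and it was -0.02 in the separated fit. As deposited, the median distance from an estimate to its 95% bound was 0.09, and the widest bounds over all members were -0.25 and 0.30. Most intervals were wider in the separated fit, such as that of Gar1 (-0.22 to 0.19, against -0.10 to 0.19 as deposited).

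The 4 members with the smallest p-values are given as not passing the test. Nob1 was at 75.9, 74.7 and 75.4 TPM in M2 and 70.5, 70.6 and 69.2 TPM in Q11 libraries, values that did not overlap (difference -0.10, interval -0.17 to -0.04, adjusted p = 0.328). Nop58 was at 61.9, 59.1 and 58.5 TPM in M2 and 65.7, 63.3 and 64.7 TPM in Q11 libraries, also without overlap (0.11, adjusted p = 0.361). Brix1 was at 103, 109 and 102 TPM in M2 and 118, 109 and 114 TPM in Q11 libraries, with overlap (0.11, adjusted p = 0.368). Polr1a was at 78.0, 75.7 and 77.1 TPM in M2 and 72.3, 74.3 and 72.7 TPM in Q11 libraries, without overlap (-0.07, adjusted p = 0.379), and its groups overlapped in the separated fit. In all, 3 members were higher and 4 lower in every Q11 library than in any M2 library, against 9.18% and 8.43% of all genes. Of the other factors of the pathway 0 of 115 were called, and Myc differed by 0.01 (-0.16 to 0.19, adjusted p = 0.965).

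Cells given Q11 with the cytokines were also above the control in this pathway. The comparison of Q11 with control uses the same control libraries as that of M2 with control, so it is not an independent measurement. Of the 49 factors 33 rose and 0 fell, against 5.19% and 5.53% of all genes tested, and all 49 differences were above 0, against 51% of all genes. The median difference was 0.20, and the range 0.03 to 0.31. All Q11 libraries lay above all control libraries for 45 members, against 16.3% of all genes. With the filter of at least 5 TPM in at least 3 libraries 35 members rose and 0 fell, against 7.78% and 7.98% of the genes tested there. In the separated fit 24 members rose and 0 fell, against 3.89% and 4.08% of all genes, and 38 members did not overlap, against 14%. The count depended on single libraries: it was 16 without Q11 replicate 1, 18 without Q11 replicate 3 and 18 without control replicate 3, with 0 members lower in each.

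The largest Q11 differences against control were those of Rrp9 (0.31), Nolc1 (0.30), Heatr1 (0.27), Nop2 (0.26), Rrs1 (0.26), Fbl (0.25), Noc2l (0.25) and Nhp2 (0.25). The values beside them for M2 against control were 0.29, 0.36, 0.30, 0.31, 0.35, 0.25, 0.23 and 0.34. Among these 8, the adjusted p for Q11 ran from 8.12e-04 for Nolc1 to 0.0318 for Rrs1. The calls on Rrp9, Rrs1 and Nhp2 were lost without at least 1 library: without Q11 replicate 1 their adjusted p was 0.0931, 0.097 and 0.0552, and without control replicate 3 it was 0.0898, 0.0934 and 0.0671. Rrp9 was also lost without control replicate 1 (0.0992) or Q11 replicate 2 (0.08), Nhp2 without control replicate 1 (0.0669), and Rrs1 without control replicate 2 (0.0985), Q11 replicate 2 (0.0805) or Q11 replicate 3 (0.0807).

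By role, in Q11 against control, 1 of 2 members of RNA polymerase I rose (Polr1a, 0.11, adjusted p = 0.0329, and 0.0558 in the separated fit), with Polr1b at 0.21 (adjusted p = 0.0543). All 4 box C/D members rose, Nop58 by 0.23 (adjusted p = 0.00458), and 3 of 4 in the separated fit, where Nop56 missed the threshold (adjusted p = 0.0645). Of the 4 box H/ACA proteins Nhp2 and Gar1 rose, the latter by 0.24 (adjusted p = 0.0462, and 0.316 in the separated fit). Dkc1 was at 209, 203 and 212 TPM in Q11 libraries, with a difference of 0.07 that did not pass (0.01 to 0.13, adjusted p = 0.139). These values lay above all control libraries as deposited, but overlapped them in the separated fit, where the difference was 0.04 (-0.04 to 0.13). In the small subunit processome 8 of 12 rose (6 in the separated fit), in later small subunit steps 4 of 5 (3), in the PeBoW complex 2 of 3 (2) and in large subunit assembly 7 of 13 (5). Ltv1 stood at 0.04 and was at 60.6, 61.4 and 63.2 TPM in Q11 libraries, overlapping the control. Among the other lists of the pathway 27 of 115 genes rose (21 in the separated fit) with a median of 0.10 and 0 fell, and Myc rose by 0.57 (0.40 to 0.74, adjusted p = 0.00195).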

How the data were processed

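RNA of 9 J774A.1 libraries was sequenced after poly-T selection and NEBNext Ultra library preparation, per the labels' protocols. The submitters' processing notes name HISAT2 2.0.5, StringTie 1.3.3b and the build GRCm38. The sources used here do not give which annotation was counted, or on which strand. The authors deposited TPM for 26157 genes, each column summing to 1e+06. TPM times the exon length of GENCODE M21 (25573 genes matched) gave whole reads, within 0.1 read, for 98.8% to 99.1% of values up to 20 reads.

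limma 3.58.1 (R 4.3.3, trend) was fitted to log2(TPM + 1) of genes that reached 1 TPM in 3 or more libraries, all 9 libraries sharing 1 estimate of the spread (6 residual degrees of freedom), two-sided. Fold changes on this scale understate those of low genes. The script was tested on simulated data. Members and lists were chosen with earlier results of these data known, so counts over them are descriptions. Genes with values in every library were 14 listed genes whatever their values, the 8 largest rises and falls per comparison among called members, and, where fewer than 4 were called, the 4 smallest p-values. Of other lists, up to 3 called genes are named. Promoters came from RefSeq tables of GRCm38.p6 and were searched with Python 3.11.15. Same-numbered libraries did not deviate together (correlations -0.0309 to 0.0362), so numbers were not used as pairs. Alternatives covered the pseudocount, filter, scaling, variance trend, libraries in the fit, replicate block, separated reads, voom and leaving out each library.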

Additional observations from a re-analysis of the deposited data

How the results depend on the processing

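Over 19 alternatives the number of members higher in M2 than in control ran from 24 (no mean-variance trend, and without control replicate 3) to 40 (limma-voom on recovered reads), with 0 lower in each, and without 1 library it ran from 24 to 34. Of the 34 members that rose, 21 kept their call in all 19 alternatives, and none changed direction. For Q11 against control the number of members called higher ran from 16 to 41 over the 19 alternatives, with 17 for no mean-variance trend, 35 for a filter of at least 5 TPM, 41 for limma-voom and 16 to 32 without 1 library (16 without Q11 replicate 1, 18 without control replicate 3 or Q11 replicate 3), and 15 of the 33 kept their call in all 19. Its median difference ran from 0.165 (without control replicate 3) to 0.213 without 1 library. For Q11 against M2, 0 members were called in any alternative, and the median ran from -0.029 (without Q11 replicate 1) to 0.00212 (without Q11 replicate 2). With a replicate block, 28 members rose in M2 and 24 in Q11 against control, and 0 in Q11 against M2. Same-numbered libraries showed no shared deviation, so the number was not used as a pairing. This cannot tell whether such libraries were prepared together. Fits without a library have fewer samples; other causes were not tested. With 3 libraries a group, the interval of a member reached a median of 0.09 (log2) to either side as deposited. Most intervals were wider in the separated fit. These widths limit what Q11 against M2 can show.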
